A study of Mus musculus with 35 samples.

Results

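The genes examined here were 10 genes that carry iron into cells, move it between compartments, store it, export it or release it from heme: Tfrc, Tfr2, Steap3, Slc11a2, Slc11a1, Slc25a37, Fth1, Ftl1, Slc40a1 and Hmox1. They were chosen by name from their known roles, and all 10 were found among the 49671 genes of the count table. All 10 also passed the filter on low counts that left 17166 genes for testing. They were measured by RNA-seq in mouse lin− HSPCs, the stem and progenitor cells of bone marrow that lack markers of mature blood cells and give rise to all blood lineages. Cells of C57Bl/6 mice were infected with a lentivirus, sorted for the fluorescent proteins that it encodes, and grown for 1 week in a first plating of methylcellulose medium (M3434) supplemented with 10 ng/mL GM-CSF. M3434 holds cytokines that support myeloid and erythroid colonies.

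The 7 groups of 5 libraries each differed in what the virus carried. The controls (labelled Empty) carried mCherry alone, the empty vector. The second group carried G-NHA9, the leukemia fusion of the N-terminal region of the nucleoporin NUP98 with the homeodomain part of HOXA9, tagged with mEGFP (spelled G-NHX9 in the labels, as are its variants). The N-terminal region of NUP98 (NUP98-N) is a disordered stretch rich in phenylalanine-glycine (FG) motifs. In G-NHA9–8FA, phenylalanines in the C-terminal part of NUP98-N were changed to alanine. In G-NHA9–21FGAA the FG pairs of that part were changed to pairs of alanines, and the FG motifs of the N-terminal part were kept. G-NHA9Midi kept only the C-terminal part of NUP98-N, and G-NHA9Midi–21FGAA was the same truncation with its FG motifs removed. In G-NHA9–ΔDNA the homeodomain was mutated to weaken its binding to DNA. Donor mice were 8 weeks old for most libraries, 9 and 10 weeks for empty vector libraries 4 and 5, and 11 weeks for G-NHA9 library 1. The cells of a library are a mixture of what grew after the sort, and in such bulk libraries fewer cells of a type and less RNA per cell cannot be told apart.

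Cells take up iron as transferrin, which binds transferrin receptors at the surface and is carried into endosomes. There a reductase of the STEAP family turns the iron to its ferrous form and a transporter of the NRAMP family carries it into the cytosol, from where it goes to mitochondria for heme and iron-sulfur clusters or into the ferritin shell for storage. Erythroblasts take up large amounts of iron for hemoglobin, whereas macrophages recover it from the heme of engulfed red cells and pass it out through ferroportin.

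Several of these genes carry an iron-responsive element (IRE) in their mRNA, a short hairpin bound by the iron regulatory proteins when iron is scarce. In a 5′ untranslated region (UTR) a bound IRE blocks translation, and in the 3′ UTR of Tfrc bound IREs protect the mRNA from decay, so an mRNA level alone does not give the protein level of these genes. The IRE sequences are shown for the members in which a strict form of the motif was found. The GENCODE M21 annotation of GRCm38 was searched for a C, 5 bases, the loop CAGTGN and 5 bases that pair with the first 5, G-U pairs allowed, on the strand of the transcript only. The search covered whole protein-coding transcripts. A match was found in 4 of the 10 members (40%), each time in a UTR, against 292 of 21703 protein-coding genes (1.35%) at any place in the transcript. As the members were chosen for known roles in iron handling, these shares are no test of them. The windows of 29 bases around each match are given here 5′ to 3′ on the strand of the gene, with the loop in capitals.
Tfrc 3′ UTR, plus strand, chr16:32631219-32631247: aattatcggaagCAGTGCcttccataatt
Tfrc 3′ UTR, plus strand, chr16:32631598-32631626: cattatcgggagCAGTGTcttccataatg
Tfrc 3′ UTR, plus strand, chr16:32631663-32631691: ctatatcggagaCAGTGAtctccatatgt
Tfrc 3′ UTR, plus strand, chr16:32631710-32631738: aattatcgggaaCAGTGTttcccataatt
Fth1 5′ UTR, plus strand, chr19:9982732-9982760: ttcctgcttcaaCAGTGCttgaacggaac
Ftl1 5′ UTR, minus strand, chr7:45459779-45459807: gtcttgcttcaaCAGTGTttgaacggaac
Slc40a1 5′ UTR, minus strand, chr1:45925465-45925493: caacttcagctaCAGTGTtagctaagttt
The Tfrc transcript held 4 matches and each of the other transcripts 1. The lack of a match in the remaining members says only that this strict pattern is not in their annotated transcripts. It does not place them outside this control.

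Library totals ran from 31559914 to 75810659 counts, with a median of 45464263, so that every member was counted in every library. Levels are given in CPM, each gene's counts divided by the scaled library total, after scaling of the totals by the trimmed mean of M values (TMM), as the mean ± SD of 5 libraries, and differences as log2 fold changes with their standard error (SE). A difference was called where the quasi-likelihood test of edgeR gave a p under 0.05 after Benjamini-Hochberg adjustment over all 17166 genes (written as the edgeR adjusted p). The words higher, lower, rose and fell stand for such calls. A 95% interval is that of the log2 fold change, taken from its SE and the normal distribution. It is narrower than the quasi-likelihood test implies, and can exclude 0 where the unadjusted p is above 0.05.

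Per kb of exon, the level of the members in the empty vector cells spanned from ferritin to the second transferrin receptor. Ftl1 stood at 13745 CPM per kb and Fth1 at 2628, followed by Hmox1 at 140, Tfrc at 17.2, Slc11a1 at 10.2, Slc25a37 at 7.22, Slc40a1 at 5.68, Slc11a2 at 4.95, Steap3 at 3.69 and Tfr2 at 0.927. Together the ferritin subunits took 2.54% ± 0.209 (SD, n = 5) of all counts in empty vector cells, against 1.37% ± 0.235 with G-NHA9. The share was 1.41% ± 0.313 with G-NHA9Midi, 1.46% ± 0.255 with G-NHA9–21FGAA, 1.67% ± 0.217 with G-NHA9–ΔDNA, 1.82% ± 0.173 with G-NHA9Midi–21FGAA and 1.90% ± 0.247 with G-NHA9–8FA.

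Each construct was compared with the empty vector to ask which iron genes differed in cells that carried it. With G-NHA9, 6 of the 10 members were called, 1 higher and 5 lower, where 32.1% of all tested genes were called, 16.9% higher and 15.2% lower. The libraries did not overlap the controls for 5 members, and for 20.1% of all genes. With G-NHA9Midi, 7 members were called, 1 higher and 6 lower, beside 40.5% of all genes (20.5% higher and 20% lower), and 5 members and 27.4% of all genes did not overlap. With G-NHA9–21FGAA, 6 were called, 2 higher and 4 lower, beside 27.1% of all genes (14.7% higher and 12.5% lower), and 5 members and 16.8% of all genes did not overlap. With G-NHA9–8FA, 2 were called, both lower, beside 26.6% of all genes (13.4% higher and 13.2% lower), and 1 member and 17.1% of all genes did not overlap. With G-NHA9Midi–21FGAA, 4 were called, 1 higher and 3 lower, beside 16.9% of all genes (9.59% higher and 7.32% lower), and 3 members and 11.5% of all genes did not overlap. With G-NHA9–ΔDNA, 4 were called, 2 higher and 2 lower, beside 17.2% of all genes (9.85% higher and 7.35% lower), and 2 members and 12.1% of all genes did not overlap. These 6 comparisons share the empty vector libraries, so their counts are not independent of each other. The median log2 fold change of the members was −0.36 with G-NHA9, −0.32 with G-NHA9–8FA, −0.63 with G-NHA9Midi, −0.22 with G-NHA9–21FGAA, 0.00 with G-NHA9Midi–21FGAA and 0.03 with G-NHA9–ΔDNA, whereas the median over all tested genes lay between −0.02 and 0.03 in each comparison.

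**Figure D1:**
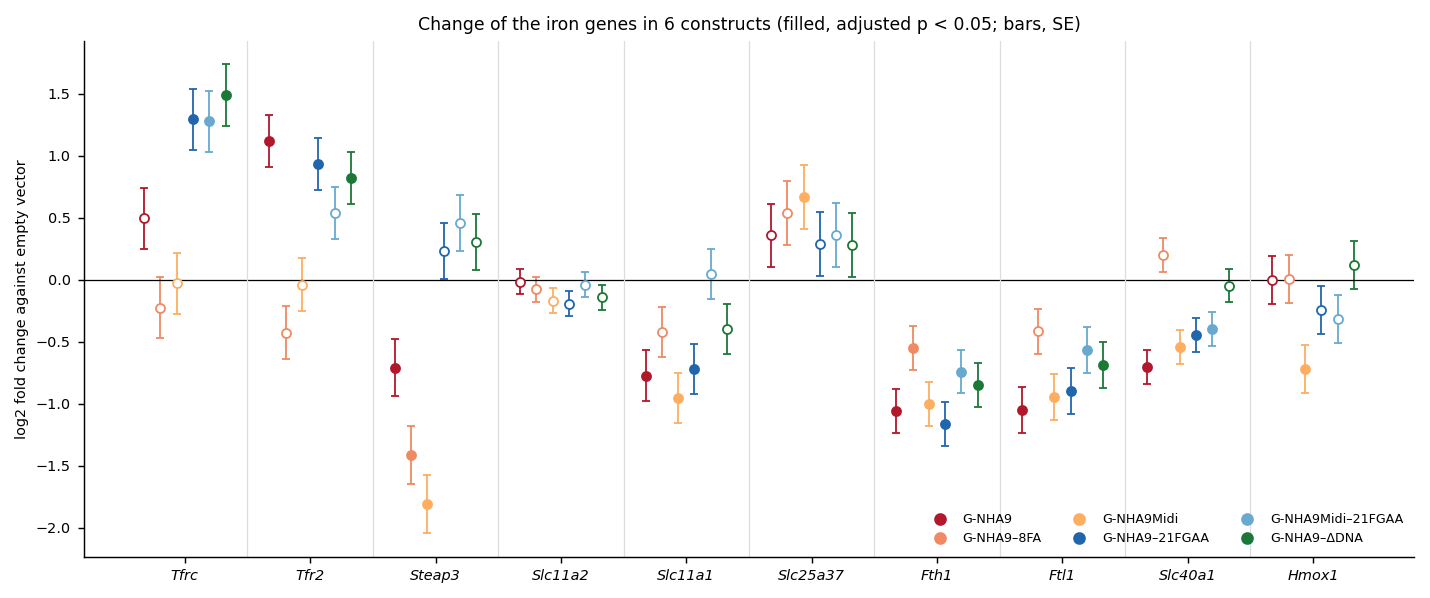
Log2 fold change against the empty vector (vertical axis) of the 10 iron genes (horizontal axis) with each of the 6 constructs (colors). Points are fitted values, bars are 1 SE either way, and filled points have an edgeR adjusted p under 0.05. The Fth1 points of all constructs are filled and below 0, the Tfrc points of G-NHA9–21FGAA, G-NHA9Midi–21FGAA and G-NHA9–ΔDNA are filled and between 1.28 and 1.49, and the lowest point is that of Steap3 with G-NHA9Midi (−1.81).

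Tfrc encodes transferrin receptor 1, the main receptor for iron-loaded transferrin on dividing cells and erythroblasts (ENSMUSG00000022797.15, chr16:32608920-32632794, plus strand). Its mRNA rose with the constructs that lacked the FG pairs of the C-terminal part of NUP98-N or bound DNA weakly. It was not called with G-NHA9 itself or with the 8FA and Midi forms. In the 5 empty vector libraries Tfrc stood at 154, 96.7, 113, 77.1 and 90.1 CPM (106 ± 29.6). It was 210, 221, 202, 341 and 327 CPM with G-NHA9–21FGAA (260 ± 67.9) and 232, 269, 261, 225 and 298 CPM with G-NHA9Midi–21FGAA (257 ± 29.6). All libraries of these 2 groups lay above all control libraries. The log2 fold change was 1.29 (SE 0.25, 2.45-fold, edgeR adjusted p = 0.000277) with G-NHA9–21FGAA and 1.28 (SE 0.25, 2.42-fold, edgeR adjusted p = 0.00105) with G-NHA9Midi–21FGAA. With G-NHA9–ΔDNA the libraries read 352, 427, 361, 198 and 151 CPM (298 ± 117), so that 4 of 5 lay above every control library and library 5 did not. Tfrc was here 2.80-fold higher (log2 fold change 1.49, SE 0.25, edgeR adjusted p = 0.000445).

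With G-NHA9 itself, Tfrc was 110, 159, 99.7, 118 and 262 CPM (150 ± 66.8). Libraries 2 and 5 lay above every control library, the other 3 lay inside the control range, and the log2 fold change of 0.50 (SE 0.25, 95% interval 0.01 to 0.98, edgeR adjusted p = 0.125) was not called. Without empty vector library 1 it became 0.66 (edgeR adjusted p = 0.0491). G-NHA9Midi (104 ± 23.7 CPM) and G-NHA9–8FA (90.9 ± 10.7 CPM) gave log2 fold changes of −0.03 (95% interval −0.51 to 0.45) and −0.22 (95% interval −0.71 to 0.26). In the order of the 7 group means the libraries of each pair of neighbours overlapped.

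Hemoglobin-making cells are the classic site of high Tfrc, and the erythroid markers moved in part with it. The CPM of the 17 tested erythroid markers summed to 243 to 753 in the empty vector libraries and to 192 to 547 with G-NHA9. The sums were 394 to 1842 with G-NHA9–21FGAA, 519 to 1630 with G-NHA9Midi–21FGAA and 450 to 1723 with G-NHA9–ΔDNA. They were far lower, 24.5 to 73.7 and 42.0 to 80.0, with G-NHA9–8FA and G-NHA9Midi. Of the 17 markers 11, 13 and 4 rose with G-NHA9–21FGAA, G-NHA9Midi–21FGAA and G-NHA9–ΔDNA, where 14.7%, 9.59% and 9.85% of all genes rose. With G-NHA9–8FA 17 fell and with G-NHA9Midi 16, where 13.2% and 20% of all genes fell. With G-NHA9 1 rose, where 16.9% of all genes rose. Hbb-bs, an adult beta-globin gene, averaged 181 CPM in the controls, 145 with G-NHA9, 12.1 with G-NHA9–8FA and 7.41 with G-NHA9Midi, against 433, 502 and 435 with G-NHA9–21FGAA, G-NHA9Midi–21FGAA and G-NHA9–ΔDNA. Cldn13, an erythroblast surface gene, had no count in any G-NHA9Midi library. Tfrc was not called with G-NHA9–8FA or G-NHA9Midi, where these markers were at a small part of their control level. In libraries 1 to 3 alone, tried after seeing the data, it was lower with G-NHA9–8FA (log2 fold change −0.51, edgeR adjusted p = 0.045). Within G-NHA9–ΔDNA the erythroid sums of libraries 1 to 5 were 781, 1216, 1723, 450 and 648 CPM, and libraries 4 and 5 were the lowest for both these sums and Tfrc. Mast cell and basophil markers also had their highest mean sums with G-NHA9–21FGAA, G-NHA9Midi–21FGAA and G-NHA9–ΔDNA (4037, 5096 and 3332 CPM, controls 2708). The part of erythroid or mast cells in the Tfrc differences was not tested.

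**Figure D2:**
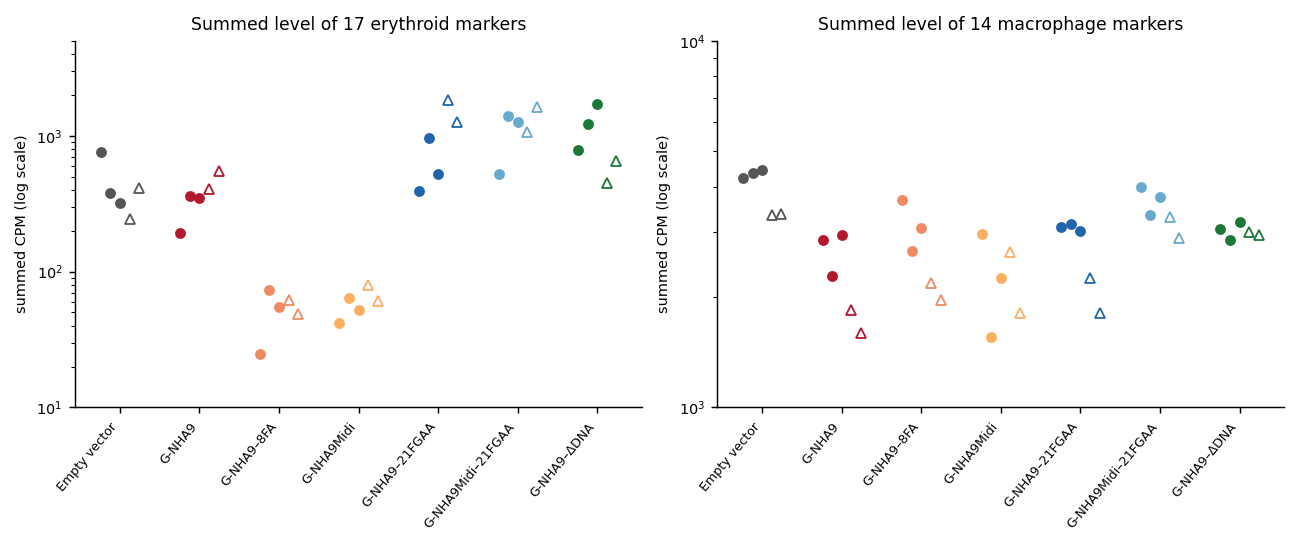
Summed CPM of 17 erythroid markers (left panel) and 14 macrophage markers (right panel) in each of the 35 libraries (vertical axes, log scale), by group (horizontal axes). Filled circles are libraries 1 to 3 and open triangles libraries 4 and 5. The erythroid sums of G-NHA9–8FA (24.5 to 73.7 CPM) and G-NHA9Midi (42.0 to 80.0 CPM) lie below those of every empty vector library (243 to 753 CPM), and the macrophage sums of G-NHA9 (1593 to 2958 CPM) lie below those of the controls (3338 to 4441 CPM).

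Tfr2 encodes transferrin receptor 2, a receptor of lower affinity that acts as an iron sensor in hepatocytes and erythroid precursors (ENSMUSG00000029716.13, chr5:137569840-137587481, plus strand). Unlike Tfrc it rose with G-NHA9 itself. The empty vector libraries read 4.17, 3.65, 4.30, 5.05 and 2.94 CPM (4.02 ± 0.784) and the G-NHA9 libraries 7.14, 7.85, 8.44, 10.2 and 10.1 CPM (8.75 ± 1.36). All G-NHA9 libraries were above all controls, a 2.18-fold difference (log2 fold change 1.12, SE 0.21, edgeR adjusted p = 9.24e-05). G-NHA9–21FGAA gave 7.29, 7.02, 6.42, 7.20 and 10.4 CPM (7.67 ± 1.58, log2 fold change 0.93, SE 0.21, edgeR adjusted p = 0.00121). G-NHA9–ΔDNA gave 6.39, 7.28, 6.66, 6.13 and 9.05 CPM (7.10 ± 1.17, log2 fold change 0.82, SE 0.21, edgeR adjusted p = 0.00699). Neither group overlapped the controls.

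With the other constructs Tfr2 was not called. G-NHA9Midi–21FGAA spread widely, at 3.35, 8.25, 6.56, 3.87 and 7.06 CPM (5.81 ± 2.12), with libraries 1 and 4 inside the control range. Its log2 fold change of 0.54 (95% interval 0.13 to 0.94, edgeR adjusted p = 0.0726) became a call without library 1 (0.69, edgeR adjusted p = 0.0162) or without library 4 (0.66, edgeR adjusted p = 0.0337). The log2 fold change was −0.04 (95% interval −0.45 to 0.37) with G-NHA9Midi and −0.43 (95% interval −0.84 to −0.01, edgeR adjusted p = 0.141) with G-NHA9–8FA, the group with the lowest Tfr2 (2.98 ± 0.764 CPM). The ratio of Tfr2 to Tfrc was compared on the log2 scale by an exact two-sided permutation test over the libraries, with 18 such tests of 3 ratios in 6 constructs. It was lower by 0.84 with G-NHA9Midi–21FGAA (exact permutation p = 0.0159, 0.0714 after Benjamini-Hochberg adjustment over the 18 tests). With G-NHA9 the difference was 0.68 (exact permutation p = 0.0635). No exact permutation test of a ratio passed after adjustment.

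Steap3 encodes the ferrireductase of the endosome that serves transferrin uptake in erythroid precursors (ENSMUSG00000026389.16, chr1:120190757-120272705, minus strand). It had the widest range of group means among the members, 2.24 on the log2 scale, which exceeded that of 92.3% of the tested genes. The empty vector libraries read 17.8, 16.99, 18.4, 23.8 and 28.5 CPM (21.1 ± 4.91). The 8FA libraries read 8.18, 8.05, 7.18, 6.75 and 9.41 CPM (7.92 ± 1.03), and the Midi libraries 6.06, 4.71, 5.26, 6.18 and 7.79 CPM (5.999 ± 1.17). Every library of both groups was below every control. Steap3 was 2.66-fold lower with G-NHA9–8FA (log2 fold change −1.41, SE 0.23, edgeR adjusted p = 1.98e-05) and 3.51-fold lower with G-NHA9Midi (log2 fold change −1.81, SE 0.23, edgeR adjusted p = 1.8e-07). G-NHA9 lay between, at 9.84, 8.91, 11.1, 14.8 and 19.8 CPM (12.9 ± 4.46), overlapping the controls through library 5. Its difference (log2 fold change −0.71, SE 0.23, 1.63-fold lower, edgeR adjusted p = 0.0157) was not called without empty vector library 5 (−0.58, edgeR adjusted p = 0.0625) or in 8-week mice alone (−0.39, edgeR adjusted p = 0.290). The 8-week set lacks empty vector libraries 4 and 5 but keeps libraries 4 and 5 of G-NHA9. In libraries 1 to 3 alone the call held.

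The constructs without FG pairs in the C-terminal part and the ΔDNA form did not show a lower Steap3. Means were 24.7 ± 8.81 CPM with G-NHA9–21FGAA (log2 fold change 0.23, 95% interval −0.21 to 0.67), 28.9 ± 8.11 CPM with G-NHA9Midi–21FGAA (0.46, 95% interval 0.02 to 0.90, edgeR adjusted p = 0.164) and 26.0 ± 7.54 CPM with G-NHA9–ΔDNA (0.30, 95% interval −0.14 to 0.75, edgeR adjusted p = 0.384). With the replicate number of the labels as a block, the 0.45 of G-NHA9Midi–21FGAA was called (edgeR adjusted p = 0.00807). The number was taken to pair the libraries of this comparison only because same-numbered libraries deviated together in these data. The groups with the lowest Steap3, G-NHA9Midi and G-NHA9–8FA, were also those with the lowest erythroid marker sums. They were lowest as well in mean summed CPM of megakaryocyte (315 and 518, controls 1602) and eosinophil markers (60.1 and 126, controls 1435). The same held for mast cell and basophil markers (781 and 897, controls 2708), though G-NHA9 was close to them at 929. The part of any of these cells in the difference was not tested.

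Slc11a2 encodes DMT1, the transporter that carries ferrous iron out of the endosome (ENSMUSG00000023030.16, chr15:100387898-100425072, minus strand). It was the most even member. All 35 libraries lay between 22.8 and 34.9 CPM, with group means from 27.5 ± 3.96 (G-NHA9–21FGAA) to 31.4 ± 2.14 (empty vector), and no comparison was called. The group means spanned 0.20 on the log2 scale, and 4.75% of the tested genes had a smaller range. With G-NHA9 the log2 fold change was −0.02 (95% interval −0.21 to 0.18).

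Its paralog Slc11a1 encodes NRAMP1, which pumps metal ions out of the phagosomes of macrophages and neutrophils (ENSMUSG00000026177.11, chr1:74375195-74386062, plus strand). It fell with 3 constructs. The empty vector libraries read 36.4, 28.3, 41.8, 34.7 and 48.0 CPM (37.8 ± 7.43), the G-NHA9 libraries 25.7, 19.0, 24.6, 23.4 and 17.9 CPM (22.1 ± 3.47), and the G-NHA9Midi libraries 19.5, 13.02, 19.5, 26.3 and 19.3 CPM (19.5 ± 4.71). The controls did not overlap either group. The differences were 1.71-fold (log2 fold change −0.77, SE 0.20, edgeR adjusted p = 0.00341) and 1.93-fold (log2 fold change −0.95, SE 0.20, edgeR adjusted p = 0.00029). With G-NHA9–21FGAA, libraries at 17.1, 22.0, 16.9, 34.4 and 24.4 CPM (23.0 ± 7.14) gave a log2 fold change of −0.72 (SE 0.20, edgeR adjusted p = 0.00794), and library 4 overlapped the controls. G-NHA9–8FA ranged from 16.7 to 43.2 CPM (28.1 ± 9.92), with a log2 fold change of −0.42 (95% interval −0.82 to −0.03, edgeR adjusted p = 0.121) that became −0.65 (edgeR adjusted p = 0.0139) without its library 2, the one at 43.2 CPM. G-NHA9Midi–21FGAA stood at the control level (39.0 ± 6.60 CPM, log2 fold change 0.04, 95% interval −0.35 to 0.44), and G-NHA9–ΔDNA at 28.8 ± 2.57 CPM (log2 fold change −0.39, 95% interval −0.79 to −0.00, edgeR adjusted p = 0.179). In the libraries of 8-week mice alone, tried after seeing the data, the G-NHA9–21FGAA difference was not called (−0.61, edgeR adjusted p = 0.0581).

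Relative to Slc11a2 within each library, the log2 ratio of Slc11a1 was lower by 0.75 with G-NHA9 and by 0.79 with G-NHA9Midi, in both with no overlap with the controls (exact permutation p = 0.00794 each, the smallest that 5 against 5 libraries can give, 0.0714 after adjustment over the 18 ratio tests). It was lower by 0.55 with G-NHA9–21FGAA (exact permutation p = 0.0159, 0.0714 after adjustment). In a linear model over all 35 libraries with the replicate number as a block (limma), this ratio passed with G-NHA9 (limma adjusted p = 0.000506). There the number was taken to pair the libraries with the controls. It also passed with G-NHA9Midi (limma adjusted p = 0.000506) and G-NHA9–21FGAA (limma adjusted p = 0.00931), where the libraries share only a number. The summed macrophage markers were lower in these groups and in one where Slc11a1 was not called. The CPM of the 14 macrophage markers summed to 3338 to 4441 in the controls, 1593 to 2958 with G-NHA9, 1561 to 2964 with G-NHA9Midi and 1813 to 3167 with G-NHA9–21FGAA. With G-NHA9–ΔDNA they also lay below every control (2865 to 3202), and they overlapped the controls with G-NHA9–8FA (1965 to 3667) and G-NHA9Midi–21FGAA (2891 to 4004). Of the 14 markers 6 fell and 4 rose with G-NHA9, 10 fell with G-NHA9Midi, 5 fell and 1 rose with G-NHA9–21FGAA and 4 fell with G-NHA9–8FA. The shares of all genes that fell were 15.2%, 20%, 12.5% and 13.2% in the same order. Over all genes 16.9% rose with G-NHA9 and 14.7% with G-NHA9–21FGAA. Marker counts for G-NHA9–ΔDNA and G-NHA9Midi–21FGAA are not given here. The defining markers Csf1r and Adgre1 were present throughout, at group means of 200 to 277 and 440 to 666 CPM. Their part in the Slc11a1 and ferritin differences was not tested.

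Slc25a37 encodes mitoferrin 1, which imports iron into the mitochondria of erythroblasts (ENSMUSG00000034248.7, chr14:69241848-69285112, minus strand). It rose with G-NHA9Midi. The empty vector libraries read 34.7, 31.2, 31.9, 49.6 and 69.9 CPM (43.5 ± 16.6) and the G-NHA9Midi libraries 56.2, 77.4, 62.5, 58.5 and 89.9 CPM (68.9 ± 14.3). Empty vector library 5 overlapped the G-NHA9Midi range. The log2 fold change with G-NHA9Midi was 0.67 (SE 0.26, 1.59-fold, edgeR adjusted p = 0.0371), and it was not called without any one of empty vector libraries 1, 2 and 3 or G-NHA9Midi libraries 2 and 5 (edgeR adjusted p up to 0.106). No other construct was called in the fit of all libraries, with log2 fold changes between 0.28 and 0.54. That of G-NHA9–8FA (0.54, 95% interval 0.04 to 1.04, edgeR adjusted p = 0.124) became 0.76 (edgeR adjusted p = 0.0342) without empty vector library 5. In the libraries of 8-week mice alone the differences with G-NHA9–8FA (0.94, edgeR adjusted p = 0.0215) and with G-NHA9 (0.82, edgeR adjusted p = 0.0400) were called. With the replicate number as a block that of G-NHA9–8FA was called (0.59, edgeR adjusted p = 0.00498). Libraries 1 to 3 alone, also tried after seeing the data, gave calls with G-NHA9–8FA (0.83, edgeR adjusted p = 0.000504), G-NHA9–ΔDNA (0.69, edgeR adjusted p = 0.00264) and G-NHA9 (0.46, edgeR adjusted p = 0.0264). The highest mean, that of G-NHA9Midi, was not called apart from that of G-NHA9–8FA (63.1 ± 12.5 CPM, log2 fold change 0.13), and their libraries overlapped. The erythroid marker sums of these groups were 42.0 to 80.0 and 24.5 to 73.7 CPM, and the part of erythroid cells in Slc25a37 was not tested. Libraries 4 and 5 of a group were both above libraries 1 to 3 in 5 of the 7 groups for Slc25a37 and in 6 of the 7 for Steap3.

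Fth1 and Ftl1 encode the heavy and the light subunit of ferritin, the shell in which cells store iron. The heavy subunit oxidizes the iron that enters and the light subunit aids its mineralization. Fth1 (ENSMUSG00000024661.6, chr19:9980598-9985098, plus strand) was the only member called with all 6 constructs, each time lower, in the fit of all libraries. Its level in the controls was 6421, 8261, 8975, 9623 and 12307 CPM (9117 ± 2148). With G-NHA9 it was 4874, 3931, 4916, 4245 and 3869 CPM (4367 ± 503), and with G-NHA9–21FGAA it was 4460, 4642, 4507, 3299 and 3403 CPM (4062 ± 654). All libraries of these groups were below all controls. The differences were 2.09-fold (log2 fold change −1.06, SE 0.18, edgeR adjusted p = 1.9e-05) and 2.24-fold (log2 fold change −1.17, SE 0.18, edgeR adjusted p = 1.9e-05).

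Fth1 also did not overlap the controls with G-NHA9Midi (4127, 3233, 4073, 6223 and 5109 CPM, log2 fold change −1.002, SE 0.18, edgeR adjusted p = 2.55e-05) or with G-NHA9Midi–21FGAA (5662, 5728, 5314, 5381 and 5206 CPM, log2 fold change −0.74, SE 0.18, edgeR adjusted p = 0.00447). It overlapped with G-NHA9–ΔDNA (4069, 4135, 4020, 5637 and 7448 CPM, log2 fold change −0.85, SE 0.18, edgeR adjusted p = 0.00167), where library 5 stood in the control range. The smallest difference was with G-NHA9–8FA (5635, 7490, 6845, 6181 and 5020 CPM, log2 fold change −0.55, SE 0.18, edgeR adjusted p = 0.0189), which was not called without empty vector library 5 (−0.43, edgeR adjusted p = 0.0763), the library with the highest Fth1. In the libraries of 8-week mice alone Fth1 was not called with G-NHA9–8FA (−0.36, edgeR adjusted p = 0.210) or G-NHA9Midi–21FGAA (−0.52, edgeR adjusted p = 0.0782), and in libraries 1 to 3 alone, also tried after seeing the data, not with G-NHA9–8FA (−0.25, edgeR adjusted p = 0.201).

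Ftl1 (ENSMUSG00000050708.16, chr7:45457944-45459884, minus strand) was lower with 5 of the 6 constructs and overlapped the controls in none of these 5. The controls read 17704, 20716, 19822, 15794 and 18054 CPM (18418 ± 1922). The G-NHA9 libraries read 9620, 8899, 12187, 8187 and 5521 CPM (8883 ± 2411) and the G-NHA9Midi libraries 11158, 6430, 8207, 12826 and 9157 CPM (9556 ± 2500). These were 2.07-fold (log2 fold change −1.05, SE 0.19, edgeR adjusted p = 4.41e-05) and 1.93-fold (log2 fold change −0.95, SE 0.19, edgeR adjusted p = 0.000107) lower. G-NHA9–21FGAA averaged 9894 ± 2235 CPM (log2 fold change −0.90, SE 0.19, edgeR adjusted p = 0.000567), G-NHA9–ΔDNA 11430 ± 1137 CPM (−0.69, SE 0.19, edgeR adjusted p = 0.0102) and G-NHA9Midi–21FGAA 12430 ± 1811 CPM (−0.57, SE 0.18, edgeR adjusted p = 0.0319). The last call was lost without empty vector library 2 or 3 or G-NHA9Midi–21FGAA library 4 or 5 (edgeR adjusted p up to 0.106). With G-NHA9–8FA Ftl1 averaged 13793 ± 2639 CPM and was not called (−0.42, 95% interval −0.78 to −0.06, edgeR adjusted p = 0.0949). Without library 1 of that group it was (−0.52, edgeR adjusted p = 0.0421).

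The ratio of the subunits was not called. The log2 ratio of Fth1 to Ftl1 differed from the controls by −0.23 to 0.05 in the 6 constructs, and the smallest exact permutation p was 0.278. Processed copies of ferritin genes can share reads with them: 5 ferritin pseudogenes in the table took 0.266% to 0.564% of the ferritin counts of a library. Ftl1 also overlaps Gm10252 on the opposite strand, which held at most 59 counts.

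Slc40a1 encodes ferroportin, the cellular iron exporter (ENSMUSG00000025993.10, chr1:45908068-45926523, minus strand). Its control level was tight, at 51.4, 52.2, 52.7, 50.3 and 49.1 CPM (51.1 ± 1.47). It was 33.8, 36.1, 32.6, 28.5 and 26.2 CPM with G-NHA9 (31.4 ± 4.04) and 33.1, 35.9, 30.3, 40.3 and 35.9 CPM with G-NHA9Midi (35.1 ± 3.73), with all of these libraries below all controls. Ferroportin mRNA was thus 1.63-fold lower with G-NHA9 (log2 fold change −0.70, SE 0.14, edgeR adjusted p = 0.000156) and 1.46-fold lower with G-NHA9Midi (−0.54, SE 0.14, edgeR adjusted p = 0.00168). With G-NHA9–8FA it was not lower: the libraries read 51.1, 63.8, 59.1, 51.9 and 67.3 CPM (58.6 ± 7.18, log2 fold change 0.20, 95% interval −0.07 to 0.46). With G-NHA9–ΔDNA they read 52.0, 55.5, 50.6, 35.8 and 53.5 CPM (49.5 ± 7.85, log2 fold change −0.05, 95% interval −0.31 to 0.22), and library 4 alone lay below the controls.

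In the FG-depleted constructs Slc40a1 was also called lower, but each call was lost in some fits that left out 1 library. G-NHA9–21FGAA gave 45.7, 39.9, 42.6, 32.2 and 27.4 CPM (37.5 ± 7.55, log2 fold change −0.45, SE 0.14, edgeR adjusted p = 0.0138), all below the controls, and the call was lost without its library 5 (−0.33, edgeR adjusted p = 0.0885). G-NHA9Midi–21FGAA gave 43.2, 49.5, 36.0, 38.2 and 27.4 CPM (38.8 ± 8.25, log2 fold change −0.40, SE 0.14, edgeR adjusted p = 0.041), and this call was lost in 8 of the 10 fits that left out 1 library, those without any one empty vector library or without library 3, 4 or 5 of the construct (edgeR adjusted p up to 0.186).

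Hmox1 encodes heme oxygenase 1, which opens the heme ring and frees its iron (ENSMUSG00000005413.8, chr8:75093621-75100589, plus strand). It fell with G-NHA9Midi and was called with no other construct. The empty vector libraries read 251, 161, 213, 221 and 378 CPM (245 ± 80.9) and the G-NHA9Midi libraries 152, 97.5, 133, 196 and 165 CPM (149 ± 36.7), a 1.65-fold difference with overlap (log2 fold change −0.72, SE 0.19, edgeR adjusted p = 0.0032). The call was lost in the libraries of 8-week mice alone (−0.50, edgeR adjusted p = 0.0579). With G-NHA9 (244 ± 42.4 CPM) the log2 fold change was −0.00 (95% interval −0.38 to 0.38), and the remaining group means were 196 to 265 CPM.

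**Figure D3:**
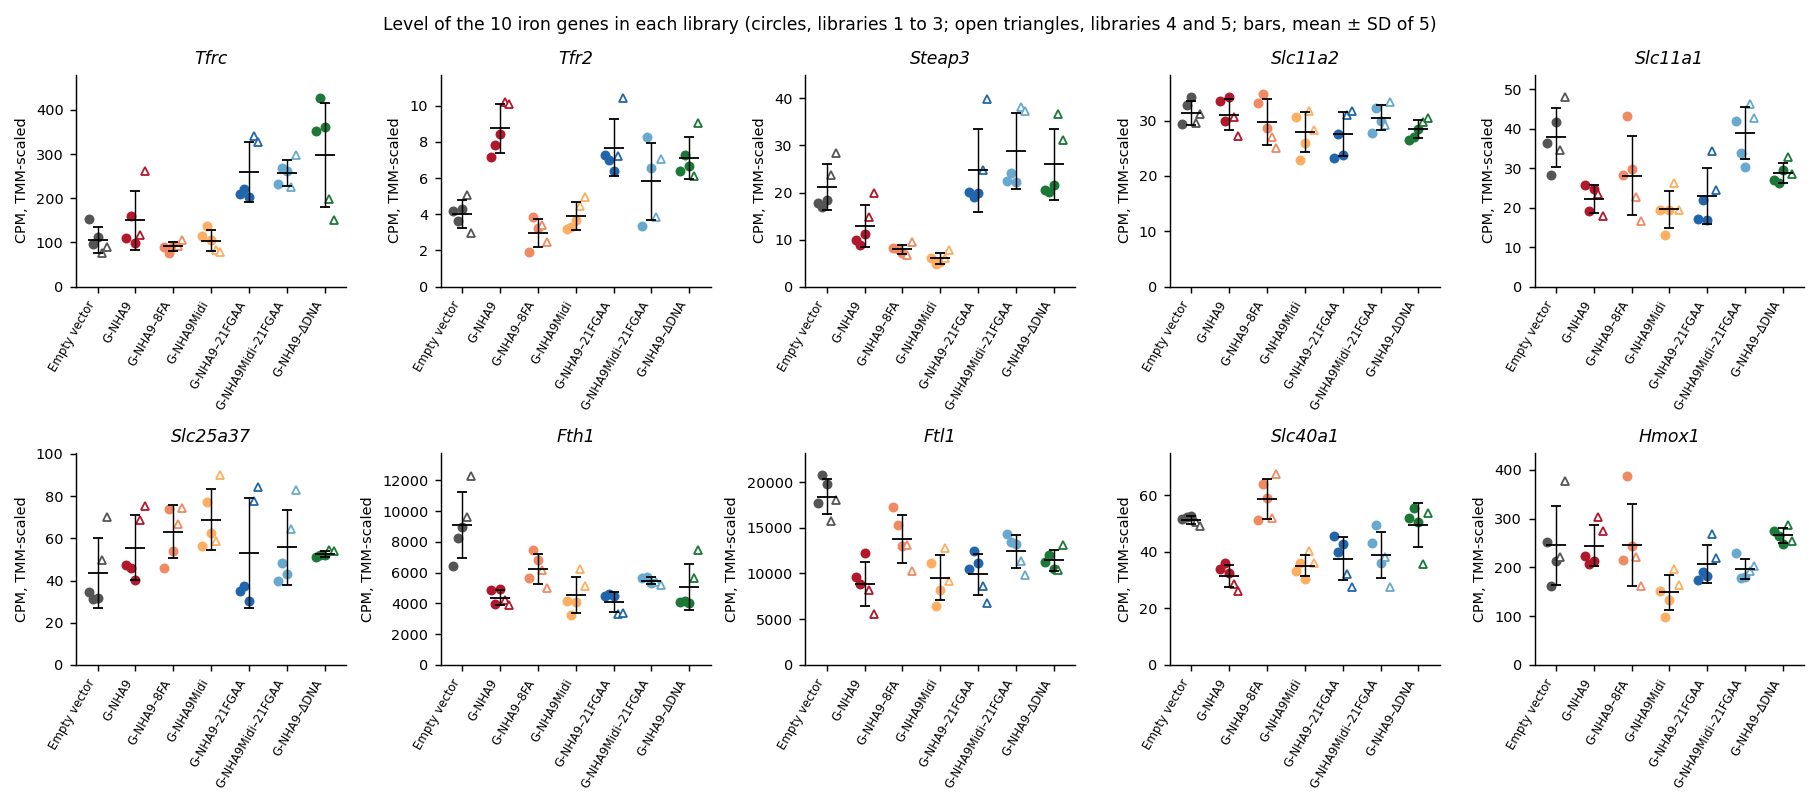
Level of each of the 10 iron genes in all 35 libraries (vertical axes, TMM-scaled CPM from 0), by group (horizontal axes). Filled circles are libraries 1 to 3, open triangles libraries 4 and 5, and bars the mean ± SD of 5 libraries. The Slc40a1 control libraries lie within 49.1 to 52.7 CPM, above all G-NHA9 (26.2 to 36.1 CPM) and G-NHA9Midi (30.3 to 40.3 CPM) libraries, while the Slc11a2 libraries of all groups lie between 22.8 and 34.9 CPM.

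Comparing the constructs with each other asks how the FG motifs, the truncation and DNA binding bear on these levels. Against G-NHA9, G-NHA9–8FA had 6 members called, 3 higher and 3 lower, where 14.5% of all tested genes were called, 6.43% higher and 8.04% lower. Slc40a1 was 1.86-fold higher (log2 fold change 0.90, SE 0.14, edgeR adjusted p = 2.09e-05) and Tfr2 2.93-fold lower (−1.55, SE 0.21, edgeR adjusted p = 3.82e-06), both with no overlap between the groups. The libraries did not overlap for Fth1 either, and for 9.4% of all genes. Ftl1 (0.63, edgeR adjusted p = 0.0185) and Fth1 (0.51, edgeR adjusted p = 0.045) were higher, and Tfrc (−0.72, edgeR adjusted p = 0.0451) and Steap3 (−0.70, edgeR adjusted p = 0.0356) lower. Only the Slc40a1 and Tfr2 calls held in every fit that left out 1 library. Without G-NHA9 library 5 the other 4 were lost (Tfrc −0.43, edgeR adjusted p = 0.285, Fth1 0.46, edgeR adjusted p = 0.128, Steap3 −0.51, edgeR adjusted p = 0.190, and Ftl1 0.49, edgeR adjusted p = 0.0792). Fth1 was also lost without G-NHA9 library 2 or 4 or 8FA library 1, 2, 3 or 4, Steap3 without G-NHA9 library 4 or 8FA library 1, 2, 3 or 4, Tfrc without G-NHA9 library 2 or 8FA library 1, 2, 3 or 4, and Ftl1 without 8FA library 1.

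G-NHA9Midi against G-NHA9 had 3 members called, all lower and with no overlap between the groups. Over all genes 19.7% were called (8.5% higher and 11.2% lower) and 13.1% did not overlap. Tfr2 was 2.23-fold lower (log2 fold change −1.16, SE 0.21, edgeR adjusted p = 0.000114), Steap3 2.15-fold lower (−1.10, SE 0.23, edgeR adjusted p = 0.000749) and Hmox1 1.64-fold lower (−0.72, SE 0.19, edgeR adjusted p = 0.00775). The ferritin genes and Slc40a1, which were lower in both groups than in the controls, were not called between them.

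G-NHA9–21FGAA against G-NHA9 had 2 members called, both higher. Of all genes 17.2% were called (8.91% higher and 8.34% lower), so that the count was near the background. No member was free of overlap, against 11.5% of all genes. Steap3 was 1.92-fold higher (log2 fold change 0.94, SE 0.23, edgeR adjusted p = 0.00299) and Tfrc 1.74-fold higher (0.80, SE 0.25, edgeR adjusted p = 0.021). The Tfrc call was lost without any one of G-NHA9 libraries 1, 3 and 4 or 21FGAA libraries 4 and 5 (edgeR adjusted p up to 0.0740). G-NHA9–ΔDNA against G-NHA9 had 3 called, beside 22.1% of all genes (10.7% higher and 11.4% lower). All 3 were higher, Steap3 2.02-fold (1.01, SE 0.23, edgeR adjusted p = 0.00122), Tfrc 1.99-fold (0.99, SE 0.25, edgeR adjusted p = 0.00329) and Slc40a1 1.57-fold (0.65, SE 0.14, edgeR adjusted p = 0.000559). Steap3 did not overlap between the ΔDNA and G-NHA9 libraries, nor did Slc11a1 (26.2 to 32.7 against 17.9 to 25.7 CPM), which was not called (0.38, 95% interval −0.02 to 0.77, edgeR adjusted p = 0.199). A fit of only these 2 groups exchanged the calls: Tfrc missed the threshold (0.98, edgeR adjusted p = 0.0517) and Slc11a1 passed it (0.38, edgeR adjusted p = 0.041). Of all genes 14.2% did not overlap.

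Removing the FG motifs from the truncated fusion gave the largest difference of any member in the 13 comparisons, that of Steap3. G-NHA9Midi–21FGAA against G-NHA9Midi had 4 members called, all higher, where 43.2% of all tested genes were called (21% higher and 22.2% lower), so that the count was near the background. Of all genes 30.1% did not overlap. Steap3 was 4.81-fold higher (log2 fold change 2.27, SE 0.24, edgeR adjusted p = 2.11e-09), at 22.3 to 38.2 CPM against 4.71 to 7.79 CPM. Tfrc was 2.47-fold higher (1.31, SE 0.25, edgeR adjusted p = 6.46e-05) and Slc11a1 1.99-fold higher (1.00, SE 0.20, edgeR adjusted p = 0.000152), both with no overlap. Tfr2 was 1.49-fold higher (0.57, SE 0.21, edgeR adjusted p = 0.0249), a call lost without G-NHA9Midi library 1 or 2 or G-NHA9Midi–21FGAA library 2, 3 or 5 (edgeR adjusted p up to 0.111). The erythroid marker sums differed in the same direction, 519 to 1630 against 42.0 to 80.0 CPM. So did the mean sums of mast cell and basophil (5096 against 781 CPM), eosinophil (1421 against 60.1 CPM) and megakaryocyte markers (1561 against 315 CPM). The part of these cells was not tested.

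The FG-pair and phenylalanine mutants of the full-length fusion differed in 6 members, 3 higher and 3 lower, beside 32.4% of all genes (15.3% higher and 17.1% lower). With G-NHA9–21FGAA, Steap3 was 3.12-fold (log2 fold change 1.64, SE 0.23, edgeR adjusted p = 1.45e-06), Tfrc 2.86-fold (1.52, SE 0.25, edgeR adjusted p = 1.7e-05) and Tfr2 2.56-fold (1.36, SE 0.21, edgeR adjusted p = 7e-06) higher than with G-NHA9–8FA. Slc40a1 was 1.56-fold (−0.64, SE 0.14, edgeR adjusted p = 0.000438) and Fth1 1.53-fold (−0.62, SE 0.18, edgeR adjusted p = 0.00688) lower. None of these 5 overlapped between the groups, nor did 20.2% of all genes. Ftl1 was 1.39-fold lower (−0.48, SE 0.18, edgeR adjusted p = 0.0448), a call lost in 7 of the 10 fits that left out 1 library, those without 8FA library 1, 2, 3 or 4 or 21FGAA library 1, 4 or 5 (edgeR adjusted p up to 0.192). Between G-NHA9Midi and G-NHA9–8FA, the groups with the lowest erythroid sums, 2 members were called, both lower, beside 4.25% of all genes (1.51% higher and 2.74% lower). Of all genes 5.25% did not overlap. Slc40a1 was 1.67-fold lower with G-NHA9Midi, with no overlap (−0.74, SE 0.14, edgeR adjusted p = 0.00086), and Hmox1 1.66-fold lower (−0.73, SE 0.19, edgeR adjusted p = 0.0236). The Hmox1 call was lost without 8FA library 2 or G-NHA9Midi library 2 or 3 (edgeR adjusted p up to 0.154).

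Other genes of iron handling were taken as lists by function. Of the genes that control IRE-bearing mRNAs and ferritin, 6 were tested. Aco1, the iron regulatory protein that doubles as an aconitase, was lower with G-NHA9 (59.4 against 90.9 CPM, log2 fold change −0.61, edgeR adjusted p = 1.96e-06), G-NHA9–8FA (−0.58, edgeR adjusted p = 5.98e-06) and G-NHA9Midi (−0.65, edgeR adjusted p = 3.87e-07). Ireb2, the other iron regulatory protein, was called with G-NHA9Midi alone (−0.62, edgeR adjusted p = 0.046). Ncoa4, the receptor that delivers ferritin to lysosomes, was lower with G-NHA9–8FA (−0.34, edgeR adjusted p = 0.0149) and G-NHA9Midi (−0.74, edgeR adjusted p = 7.51e-07). Fbxl5, the ubiquitin ligase subunit that marks Ireb2 for degradation when iron is plentiful, was lower with G-NHA9 (−0.94, edgeR adjusted p = 0.000192), G-NHA9–21FGAA (−0.64, edgeR adjusted p = 0.0102), G-NHA9Midi–21FGAA (−0.69, edgeR adjusted p = 0.0108) and G-NHA9–ΔDNA (−0.53, edgeR adjusted p = 0.0449). The iron chaperones Pcbp1 and Pcbp2 were called with no construct. None of the 6 rose with any construct.

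Among 12 other transporters, reductases and iron-binding proteins, 4 fell and 1 rose with G-NHA9, 3 fell and 3 rose with G-NHA9–8FA and 5 fell and 3 rose with G-NHA9Midi. Of all genes 15.2%, 13.2% and 20% fell and 16.9%, 13.4% and 20.5% rose in these comparisons. Trf, transferrin itself, was the leading one to fall. It averaged 70.0 CPM in the controls, 13.96 with G-NHA9 (log2 fold change −2.33, edgeR adjusted p = 2.13e-08), 12.3 with G-NHA9–8FA (−2.51, edgeR adjusted p = 9.12e-09) and 13.5 with G-NHA9Midi (−2.38, edgeR adjusted p = 7.43e-09), with no overlap. It was also lower with G-NHA9–21FGAA (25.6 CPM, −1.45, edgeR adjusted p = 9.03e-05) and G-NHA9Midi–21FGAA (40.3 CPM, −0.80, edgeR adjusted p = 0.0244). Of 10 tested genes of heme uptake, export and breakdown, 6 fell with G-NHA9, 5 with G-NHA9–8FA, 6 with G-NHA9Midi and 5 with G-NHA9–21FGAA, against 0 with G-NHA9Midi–21FGAA and 2 with G-NHA9–ΔDNA. The shares of all genes that fell were 15.2%, 13.2%, 20%, 12.5%, 7.32% and 7.35% in the same order. Mfsd7c, a membrane transporter also called Flvcr2, fell from 11.99 to 1.58 CPM with G-NHA9Midi (−2.92, edgeR adjusted p = 2.06e-10), to 5.58 CPM with G-NHA9 (−1.10, edgeR adjusted p = 0.000706) and to 5.001 CPM with G-NHA9–8FA (−1.26, edgeR adjusted p = 0.000206). Lrp1, a receptor whose ligands include heme-loaded hemopexin, fell with G-NHA9 (−1.22, edgeR adjusted p = 0.00278), G-NHA9–8FA (−1.56, edgeR adjusted p = 0.000322) and G-NHA9Midi (−2.03, edgeR adjusted p = 4.65e-06).

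Of the 12 genes of mitochondrial iron and iron-sulfur cluster assembly 4 rose and 1 fell with G-NHA9, where 16.9% of all genes rose. With G-NHA9–8FA and with G-NHA9Midi 2 rose and none fell, a number near the 13.4% and 20.5% of all genes that rose. Slc25a28, mitoferrin 2, was higher with G-NHA9 (log2 fold change 0.26, edgeR adjusted p = 0.0252), G-NHA9–8FA (0.39, edgeR adjusted p = 0.00125) and G-NHA9Midi (0.56, edgeR adjusted p = 6.49e-06). Abcb10, an inner membrane transporter that binds mitoferrin 1, was higher with G-NHA9 (0.41, edgeR adjusted p = 0.0343) and also with G-NHA9–21FGAA (1.17, edgeR adjusted p = 1.99e-06), G-NHA9Midi–21FGAA (0.94, edgeR adjusted p = 0.000287) and G-NHA9–ΔDNA (0.81, edgeR adjusted p = 0.000762). Fdxr, the ferredoxin reductase, was higher with G-NHA9 (0.40, edgeR adjusted p = 0.0028), G-NHA9–8FA (0.28, edgeR adjusted p = 0.0418), G-NHA9Midi (0.45, edgeR adjusted p = 0.000658), G-NHA9–21FGAA (0.48, edgeR adjusted p = 0.000745) and G-NHA9Midi–21FGAA (0.29, edgeR adjusted p = 0.0474). Of 11 genes of BACH1, NRF2 and their antioxidant targets, the list that holds the regulators of Hmox1 and ferritin transcription, 5 fell with G-NHA9, 3 fell and 1 rose with G-NHA9Midi and 1 fell and 1 rose with G-NHA9–8FA, where 15.2%, 20% and 13.2% of all genes fell. Slc7a11, the cystine importer, rose with G-NHA9–8FA (0.97, edgeR adjusted p = 0.00325) and G-NHA9Midi (0.87, edgeR adjusted p = 0.00469). Of the 7 genes around hepcidin, the hormone that closes ferroportin, 3 were tested, and the hepcidin genes Hamp and Hamp2 held at most 2 counts in any library.

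**Figure D4:**
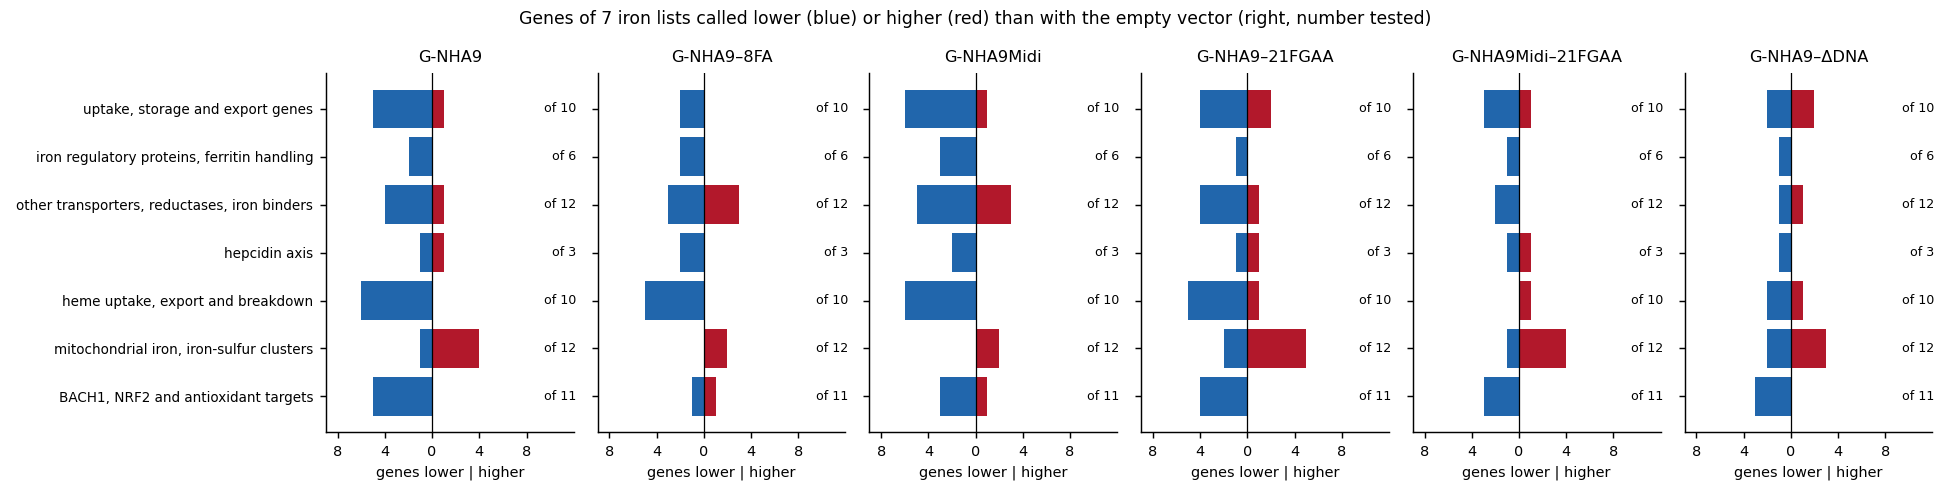
Number of genes called lower (blue bars to the left of 0) and higher (red bars to the right) than with the empty vector (horizontal axes, genes) in each of 7 iron lists (vertical axis), 1 panel per construct, with the number tested at the right of each row. The top row holds the 10 genes of uptake, storage and export. In the list of heme uptake, export and breakdown, 6 of 10 tested genes fell with G-NHA9 and with G-NHA9Midi and 0 fell with G-NHA9Midi–21FGAA.

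The genes whose pattern over the 7 group means was most like that of each member were found by the root mean square difference of centred log2 levels among 10298 genes. The best matches were Ftl1 with App (0.02) and Aldh3b1 (0.08), Slc11a2 with Eya3 (0.02) and Zufsp (0.03), Fth1 with Cd68 (0.06) and Tmem154 (0.07), Steap3 with Ptk2 (0.07) and Serpinb6b (0.09), and Slc25a37 with Eme2 (0.07). Cd68 is one of the macrophage markers described with Slc11a1. Slc11a1 was closest to Lhfpl2 (0.09) and Mcoln2 (0.10), Slc40a1 to Layn (0.11) and Arg2 (0.12), and Hmox1 to Npepps (0.12) and Zbtb34 (0.13). The match was looser for Tfrc (Lgalsl, 0.16; C330027C09Rik, 0.18) and for Tfr2 (Meis1, 0.17; Cxxc5, 0.19).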

How the data were processed

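RNA-seq libraries (TruSeq Stranded Total RNA, paired-end, NovaSeq) were made from sorted, transduced cells. The authors aligned the reads and counted them per gene. Their deposited table holds raw counts per gene with no normalization, and per the submitters' processing notes STAR 2.7.0d, HTSeq 0.11.2, DESeq2 and mm10 were used. The annotation and the strand setting of the counting are not given in the sources used here, so reads of a gene and an antisense partner may not be separated. Gene positions and transcripts came from GENCODE M21 (GRCm38), which matched 88.25% of the gene identifiers with their version and 99.48% without it. The labels and the study's methods differ on read length and on the number of replicates, and the labels were followed.

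All 35 libraries were fitted together in R 4.3.3 with edgeR 4.0.16 (filterByExpr, TMM, quasi-likelihood test, Benjamini-Hochberg adjustment over 17166 genes), with DESeq2 1.42.0 as an alternative and limma 3.58.1 for the ratios with a replicate block. CPM used TMM-scaled library totals, and the log2 scale of ratios and patterns a prior count of 2. Overlap means that the ranges of the 5 libraries of each group shared values. Total counts ranged from 31559914 to 75810659, TMM factors from 0.899 to 1.11. Intervals cover the spread between libraries. Donor ages differ between some libraries of the empty vector and G-NHA9 groups, so those had different donors. For the other libraries nothing says that they came from separate animals, so p-values measure only the spread between these samples. No pair of libraries of a group agreed within sampling noise (lowest chi-square per degree of freedom 24.7). The fit was tested on simulated counts with known changes.

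The members and the gene lists were chosen with earlier results of these data known. All members are named. From the other lists, the 3 higher and 3 lower genes with the largest fold changes (mean of at least 5 CPM) in G-NHA9, G-NHA9–8FA and G-NHA9Midi against the empty vector are named, and pattern genes are the 2 with the smallest root mean square difference, of which 1 is not reported here. The iron regulatory list and the hepcidin genes were named after their values were seen. Replicate numbers of the labels were taken to pair libraries where all 5 same-numbered pairs deviated together (r over 0.1). This held in 5 of 13 comparisons (the empty vector against G-NHA9, the ΔDNA form and the FG-free Midi form, and G-NHA9 against the ΔDNA and 21FGAA forms). The mean r was 0.345 for equal and −0.0825 for different numbers. Donor ages differ within some of these pairs, which therefore did not share donors. Empty vector libraries 4 and 5 (9 and 10 weeks) and G-NHA9 library 1 (11 weeks) are paired with libraries of 8-week mice. Python 3.11.15, numpy 2.4.6 and matplotlib 3.10.9 were used for the motif search and plots, and the exact tests were made in R.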

Additional observations from a re-analysis of the deposited data

Results flagged for a closer look

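Each group of 5 libraries was screened, for each member, for a library whose gap to its nearest neighbour exceeded Dixon's 95% critical value. Of the 70 groups of values 3 had one, and chance gives about 1 in 20. Tfr2 in G-NHA9–21FGAA library 5 stood at 10.4 CPM, above 6.42 to 7.29 CPM in the other 4. Steap3 in the same library stood at 40.0 CPM, above 18.9 to 24.8 CPM. Slc40a1 in G-NHA9–ΔDNA library 4 stood at 35.8 CPM, below 50.6 to 55.5 CPM. No member moved one way in every library of one construct and the opposite way in every library of another against the empty vector.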

How the results depend on the processing

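Of 130 fold changes of members in 13 comparisons 55 were called, and 37 of these calls held in every alternative other than the limit on fold size. No direction of a call was reversed. DESeq2 gave the same 55 calls, and so did a filter at 1 CPM. Requiring an absolute log2 fold change of at least 1 left 3 (G-NHA9), 1 (8FA), 2 (Midi), 2 (21FGAA), 1 (Midi–21FGAA) and 1 (ΔDNA) members against the empty vector, 1 (8FA), 0 (21FGAA) and 1 (ΔDNA) against G-NHA9, 2 for G-NHA9Midi–21FGAA against G-NHA9Midi, and 3 (21FGAA) and 0 (Midi) against 8FA. Without a filter on low counts G-NHA9Midi–21FGAA had 2 members called against the empty vector. Fits of only the 2 groups compared gave 3 (8FA) and 1 (21FGAA) against G-NHA9 and 1 for Midi against 8FA, and kept 3 for ΔDNA against G-NHA9 with Slc11a1 in place of Tfrc. With the replicate number as a block, 8FA had 4 members called against the empty vector and the ratio of Slc11a1 to Slc11a2 passed in 3 constructs. In the comparisons where the numbers were taken to pair the libraries, the block changed 1 call, that of Steap3 in G-NHA9Midi–21FGAA. In the others the samples share only a number. Leaving out each library in turn gave 2 to 5 members for G-NHA9Midi–21FGAA against the empty vector, 2 to 6 (8FA) and 1 to 2 (21FGAA) against G-NHA9, 1 to 3 for Midi against 8FA, and 0 to 3 constructs for the ratio of Slc11a1 to Slc11a2, 3 of them without empty vector library 2. Scaling by total counts without TMM lost 6 and added 3 calls. It moved the median of all genes by over 0.1 in 7 of 13 comparisons, with G-NHA9 against the empty vector from 0.01 to 0.19, and raised the share of higher calls there from 52.5% to 75.4%, with Midi from 50.6% to 64.6%, with 21FGAA from 54.0% to 82.1%, with Midi–21FGAA from 56.7% to 83.1% and with ΔDNA from 57.3% to 82.5%. The share went from 44.4% to 19.97% for 8FA against G-NHA9, and from 47.2% to 68.0% (21FGAA) and 35.5% to 59.1% (Midi) against 8FA. With that scaling Steap3 was not called with G-NHA9 (edgeR adjusted p = 0.0898), Slc40a1 not with 21FGAA (edgeR adjusted p = 0.1098), and Slc40a1 and Ftl1 not with Midi–21FGAA (edgeR adjusted p = 0.140 and 0.0511), while Tfrc was with G-NHA9 (log2 fold change 0.69, edgeR adjusted p = 0.0343) and Tfr2 with Midi–21FGAA (0.68, edgeR adjusted p = 0.0235). After seeing the data, libraries of 8-week mice alone were tried, which left 1 member called for G-NHA9Midi–21FGAA against the empty vector and 1 for 21FGAA against G-NHA9. This set lacks empty vector libraries 4 and 5 and G-NHA9 library 1 but keeps libraries 4 and 5 of every construct. There, 8 calls were lost, those of Steap3 (G-NHA9), Fth1 (8FA), Hmox1 (Midi), Slc11a1 (21FGAA), and Slc40a1, Fth1 and Ftl1 (Midi–21FGAA) against the empty vector and Tfrc (21FGAA against G-NHA9), and 2 were added, both of Slc25a37 (G-NHA9 and 8FA). Libraries 1 to 3 alone, also tried after seeing the data, gave 4 for 21FGAA against G-NHA9, 9 for G-NHA9Midi–21FGAA against G-NHA9Midi and 6 for Midi against 8FA. The causes of these changes were not tested. Depth did not limit the members, as each had counts in all libraries.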

Other observations

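Lcn2, a neutrophil granule protein that binds iron-carrying siderophores, moved in opposite directions with 2 forms of the fusion. It averaged 331 CPM in the empty vector cells, 207 with G-NHA9 (log2 fold change −0.68, edgeR adjusted p = 0.00308) and 553 with G-NHA9–8FA (0.74, edgeR adjusted p = 0.00168). The log2 difference of the 8FA form from G-NHA9 was 1.42 (SE 0.18, edgeR adjusted p = 8.3e-07), with all 5 libraries of G-NHA9–8FA above all of G-NHA9. Of the 9 late neutrophil markers 5 rose with G-NHA9–8FA and 2 fell with G-NHA9, where 13.4% and 15.2% of all genes did so. The part of these markers' cells in the Lcn2 difference was not tested.

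Trf and Mfsd7c, which fell with G-NHA9Midi, were higher with its FG-free form, although Trf was still lower there than with the empty vector (log2 fold change −0.80, edgeR adjusted p = 0.0244). Mfsd7c was 17.9 CPM with G-NHA9Midi–21FGAA and 1.58 CPM with G-NHA9Midi (11.3-fold, log2 fold change 3.49, SE 0.27, edgeR adjusted p = 3.83e-12). Trf was 40.3 against 13.5 CPM (2.99-fold, log2 fold change 1.58, SE 0.25, edgeR adjusted p = 5.3e-06). Neither gene overlapped between these groups. Hfe, the receptor-associated protein lost in hereditary iron overload, was lower with each of the 6 constructs, from a log2 fold change of −0.49 (G-NHA9–ΔDNA, edgeR adjusted p = 0.0305) to −1.09 (G-NHA9Midi, edgeR adjusted p = 1.45e-06). Fam132b, which encodes the erythroblast hormone erythroferrone, was higher with G-NHA9 (1.24 against 0.574 CPM, edgeR adjusted p = 0.0395), G-NHA9–21FGAA (1.36 CPM, edgeR adjusted p = 0.0229) and G-NHA9Midi–21FGAA (1.46 CPM, edgeR adjusted p = 0.0224). Hfe and Fam132b were singled out after their values were seen.

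In the comparisons with G-NHA9, G-NHA9–8FA and G-NHA9Midi 15.2%, 13.2% and 20% of all genes fell and 16.9%, 13.4% and 20.5% rose. Of the other marker lists, the mast cell and basophil markers (11 tested) fell in 7, 9 and 9 genes with G-NHA9, G-NHA9–8FA and G-NHA9Midi and rose in 4 genes each with G-NHA9–21FGAA and G-NHA9Midi–21FGAA (14.7% and 9.59% of all genes). The megakaryocyte markers (9 tested) fell in 5, 9 and 9 genes with the first 3 constructs. The early granule markers (5 tested) rose in 4, 4 and 3 genes with these and in 5 each with G-NHA9–21FGAA and G-NHA9–ΔDNA, where 14.7% and 9.85% of all genes rose. The eosinophil markers (7 tested) fell in 3, 6 and 6 genes with G-NHA9, G-NHA9–8FA and G-NHA9Midi, and the stem and progenitor markers (9 tested) rose in 6, 3 and 4.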
